A study of Mus musculus with 8 samples.

Results

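The genes described here mark pericytes and vascular smooth muscle cells, the mural cells that wrap blood vessels: Acta2, Tagln, Myh11, Cnn1, Rgs5, Cspg4, Des, Notch3, Myl9 and Mcam. They are 10 of the 18193 genes that array probe sets named singly, and form a list of known markers that was drawn up with earlier results of these arrays known. A probe set is a group of short DNA probes that reads 1 transcript. The list has 19 probe sets that name 1 of its genes alone. Each gene is represented by its brightest probe set, and the others serve as a check.

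Mural cells sit on the outer face of the endothelium, and endothelial platelet-derived growth factor B draws them in through the receptor Pdgfrb. Smooth muscle cells of arteries carry a contractile apparatus of smooth muscle actin, myosin, calponin and transgelin, whose genes are switched on by serum response factor and its partners of the myocardin family. Pericytes of small vessels hold less of it and are recognised by Rgs5, the proteoglycan NG2 (Cspg4) and Pdgfrb. In tumours these cells are often sparse and loosely attached, and activated fibroblasts also make Acta2 and Tagln.

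The tumours were grown from B16F1, an established mouse melanoma line whose own TNF receptor genes were not targeted, injected under the skin of the right hind limb. Hosts were wild-type C57BL/6 mice (C57BL/6-NCr, here WT) or mice without TNF receptors 1 and 2 (TNFR1,2 -/-, here TNFR KO, bred from the stock B6;129S-Tnfrsf1a[tm1Imx] Tnfrsf1b[tm1Imx]/J). The stock's name gives a mixed B6 and 129S background, although the host strain is labelled C57BL/6 in both. Mice were 8 to 12 weeks old when the experiments began and 5 to 7 of each host were injected. Tumours of 268 to 478 cubic mm stayed untreated or received 1 X-ray dose of 20 Gy with the rest of the body shielded, and whole tumours were excised after 5 h. RNA was pooled, so that each of the 4 groups is 1 pool read on 2 arrays, and the spread between duplicate arrays is technical. The comparisons ask how host receptor loss and radiation each relate to these genes, and whether the response to radiation differs between hosts.

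Arrays of the same pool correlated at 0.975 to 0.981 over log2 signals and arrays of different pools at 0.955 to 0.972, across probe sets that are not independent replicates. With 8 arrays, their number limits precision throughout. Tnfrsf1a read 2652.6 to 3932.9 on WT arrays and 3278.9 to 4339.6 on TNFR KO arrays, while Tnfrsf1b read 157.5 to 451.4 and 108 to 147. These tumours hold receptor-intact tumour cells and the signals do not separate the hosts for Tnfrsf1a. Control transcripts that are added to RNA during labelling averaged 5638 to 10460 on WT arrays and 12.84 to 20.89 on TNFR KO arrays, whereas controls added at hybridisation overlapped between hosts. Within WT hosts these labelling controls averaged 5685 untreated and 10440 irradiated. Control probe sets for 18S ribosomal RNA also separated the hosts, at 284.3 to 345.2 on WT and 510.5 to 955.8 on TNFR KO arrays, and averaged 528.6 untreated and 944.1 irradiated in TNFR KO hosts. With 1 pool per group, sample preparation cannot be told apart from host, or from radiation within a host, in any difference below.

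The letters upstream of Acta2 and Myl9 are shown because both hold letters at or near the motif of serum response factor, the CArG box: Myl9 an exact box, and Acta2 only changed ones. Each line gives 250 bases before the start site, 5′ to 3′ on the gene's strand, from RefSeq on GRCm38.p6, with exact and changed boxes in capitals.
Acta2, chr19:34255374-34255623, minus strand: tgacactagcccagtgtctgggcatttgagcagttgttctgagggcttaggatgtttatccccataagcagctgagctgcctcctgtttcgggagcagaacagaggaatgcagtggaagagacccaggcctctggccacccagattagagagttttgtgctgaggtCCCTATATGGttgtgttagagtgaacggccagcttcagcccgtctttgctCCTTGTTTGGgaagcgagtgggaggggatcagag
Myl9, chr2:156775214-156775463, plus strand: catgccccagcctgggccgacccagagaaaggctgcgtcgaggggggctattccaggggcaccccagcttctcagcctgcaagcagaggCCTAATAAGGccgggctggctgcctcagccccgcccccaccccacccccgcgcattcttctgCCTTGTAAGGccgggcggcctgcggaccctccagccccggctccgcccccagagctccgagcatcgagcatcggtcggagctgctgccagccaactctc
The Myl9 window holds an exact box at 161 bases before the start and another with 1 inner base changed to G or C at 99 bases. The Acta2 window holds no exact box and 2 with such a change, at 84 and 34 bases. Both strands were searched. A box, exact or so changed, is in 2823 of 32851 windows (8.59%), and an exact one is in 482 (1.47%). Among the 8 listed genes with a window, the other 6 (Cnn1, Rgs5, Cspg4, Des, Notch3 and Mcam) show no such letters in it. These matches describe the sequence only.

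**Figure D1:**
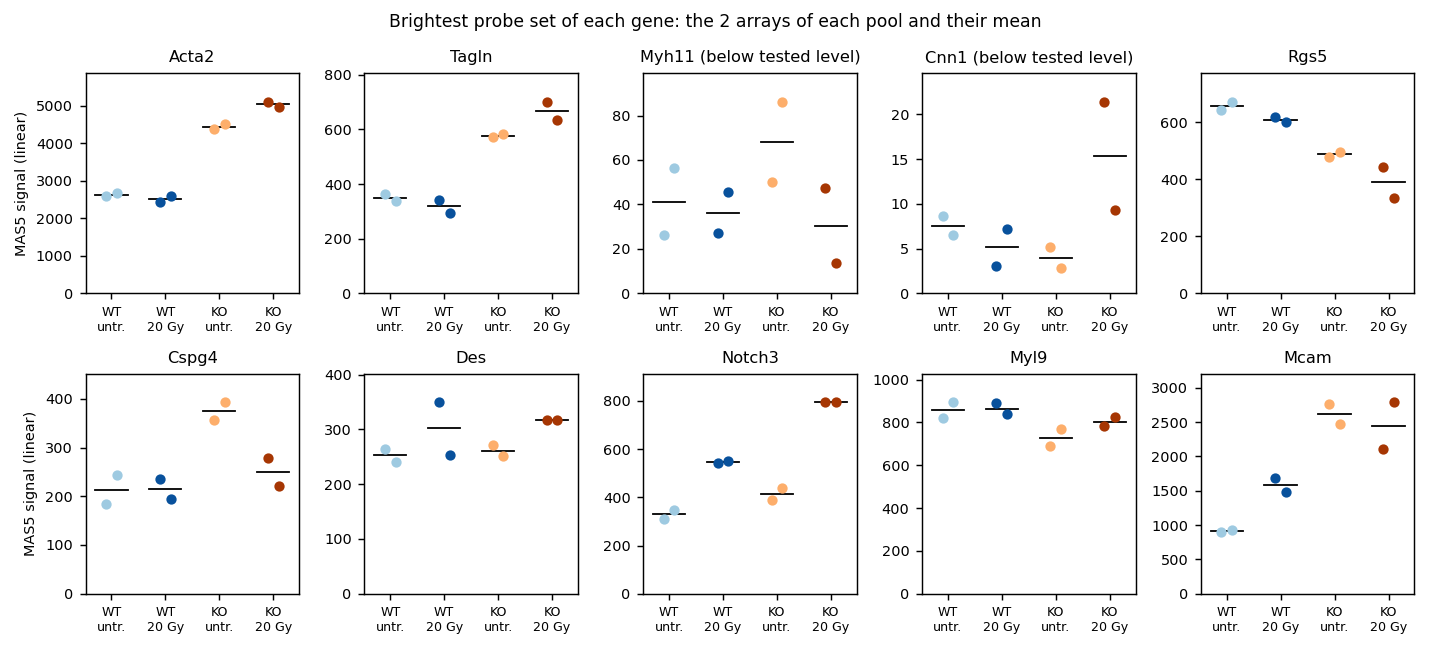
MAS5 signal (linear axis from 0, a scale of its own for each gene) of the brightest probe set of the 10 genes, with points for the 2 arrays of each pool and a line for their mean. Acta2, Tagln and Mcam are higher on all 4 TNFR KO arrays than on all 4 WT arrays, Rgs5 is lower, and Notch3 is higher after 20 Gy in both hosts, while Myh11 and Cnn1 stay near the bottom of the array's range.

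Of the contractile genes, Acta2 and Tagln were higher in tumours of TNFR KO hosts, Myl9 and Des did not pass the test, and Myh11 and Cnn1 were too dim to test. Acta2, which encodes smooth muscle actin, read 2605.4 and 2668.9 in the untreated WT pool and 2436.1 and 2600.6 in the irradiated one. In the TNFR KO pools it read 4387.8 and 4514.4 untreated and 5107.4 and 4981 irradiated. No TNFR KO array overlapped a WT array. Over both treatments the host difference was 0.87 ± 0.16 on the log2(signal + 16) scale, 1.83-fold (SE of the additive limma fit on the 4 pools, adjusted p = 0.00323). All log2 differences below are on that scale, and a gene was called from that fit when its p, adjusted by Benjamini-Hochberg over 11345 tested genes, was under 0.05. With 1 pool per group, that fit has 1 residual degree of freedom, the difference between the hosts' responses to radiation. Its error is drawn mostly from a prior shared by all tested genes (9.52 degrees of freedom). It is not a spread between tumours.

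Acta2 was higher in the TNFR KO pool by 0.75 ± 0.06 untreated and by 1.00 ± 0.06 irradiated (limma on the 8 arrays, adjusted p = 0.000315 and 0.000141). Comparisons of single pools also had to reach 2-fold to be called, and the irradiated difference of 1.9975-fold fell just short. Their error comes from duplicate arrays of the same RNA, so they compare these pools and not the conditions. After radiation Acta2 differed by -0.07 in WT and by 0.18 in TNFR KO hosts, neither called, and the pool-level effect over both hosts was 0.06 ± 0.16 (limma, adjusted p = 0.898). The brightest probe set is of a type that can also read related transcripts, and the other Acta2 probe sets averaged at most 28.8 in any pool, below the tested level. With the mean of all 3 probe sets in its place, the host difference was 0.25 and the call was lost (limma, adjusted p = 0.257).

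Tagln encodes transgelin, an actin-binding protein of smooth muscle and activated fibroblasts. It read 362 and 336.9 in untreated and 342.2 and 294.1 in irradiated WT pools. In TNFR KO pools it read 571.3 and 582 untreated and 700.3 and 634.7 irradiated. Again the hosts' arrays did not overlap, with a host difference of 0.87 ± 0.17, 1.82-fold (limma on 4 pools, adjusted p = 0.00381). The difference was 0.70 ± 0.09 untreated (limma, adjusted p = 0.00177, short of 2-fold). Irradiated, it was 1.03 ± 0.09, 2.05-fold, which was called (limma, adjusted p = 0.000416). That call ended without TNFR KO irradiated replicate 1 (0.97) or WT irradiated replicate 2 (0.93), and with a pseudocount of 64 (0.94). Radiation itself left Tagln at 0.04 ± 0.17 over both hosts (limma, adjusted p = 0.94).

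Myl9 encodes a regulatory light chain of smooth muscle myosin. It read 820 and 894.6, then 889.7 and 838.2 after radiation, in WT pools, and 691.8 and 767.3, then 781.8 and 826.5, in TNFR KO pools. The hosts' arrays overlapped, and the host difference of -0.17 ± 0.16 was not called (limma on 4 pools, adjusted p = 0.453). Myl9 thus did not share the direction seen for Acta2 and Tagln, although the difference between genes was not tested.

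Des encodes desmin, the muscle intermediate filament, which pericytes and skeletal muscle fibres also make. Its signals were 264.9 and 240.3 in the untreated and 349.5 and 254 in the irradiated WT pool. They were 272.2 and 250.6 in the untreated and 317.2 and 317.7 in the irradiated TNFR KO pool. The host values overlapped and differed by 0.07 ± 0.16, and the radiation effect was 0.25 ± 0.16 (limma on 4 pools, adjusted p = 0.773 and 0.477). Skeletal muscle markers summed to 4546 to 4608 on untreated WT arrays and 1094.4 to 1110.4 on irradiated TNFR KO arrays, the highest and lowest pools. Their part in the Des values was not tested.

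The genes that best define mature smooth muscle were dim, at percentiles 39.18 (Myh11) and 7.85 (Cnn1) of the probe sets that are not controls. Myh11, the smooth muscle myosin heavy chain, read 26.4 and 56.2, then 27 and 45.5 after radiation, in WT pools. In TNFR KO pools it read 50.1 and 86.1, then 47.2 and 13.6. Cnn1, which encodes calponin, read 2.8 to 21.4 over all 8 arrays. Both lay below the level required for testing, a signal of 68.77, on average, and neither had arrays that separated the hosts. The arrays therefore do not show a clear signal for 2 defining markers of mature smooth muscle, whereas Acta2, Tagln and Myl9 were read in every pool. The same list can be read in activated fibroblasts, and fibroblast markers are given beside it below. In whole tumours, fewer cells of a type and less RNA per cell cannot be told apart.

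On their brightest probe sets, Rgs5 was lower in TNFR KO hosts and Cspg4 was not called, and the difference between these genes was not tested. Rgs5, a regulator of G-protein signalling that marks pericytes, read 643 and 672.1, then 618.7 and 601.9 after radiation, in WT pools. It read 480 and 497.8, then 445.1 and 334.2, in TNFR KO pools. Every TNFR KO array was below every WT array. The host difference was -0.53 ± 0.16, 1.44-fold lower (limma on 4 pools, adjusted p = 0.0333). The call was lost in 6 of 8 fits that left out 1 array (-0.54 to -0.43, adjusted p up to 0.0886); only the fits without the first TNFR KO irradiated array or WT irradiated replicate 2 kept it. It was also lost with quantile normalization (-0.40) and with the mean of the gene's probe sets (-0.21).

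The other Rgs5 probe sets did not share 1 direction. One that can cross-hybridise averaged 224.65 untreated and 283.25 irradiated in WT hosts, and 328.75 and 363.5 in TNFR KO hosts, a host difference of 0.43. The other 2 had host differences of -0.54 and -0.20, with pool means between 48.85 and 96.8. The direction of Rgs5 between hosts therefore depends on the probe set.

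Cspg4, which encodes NG2, read 183.4 and 242.8, then 235.3 and 195.2 after radiation, in WT pools. In TNFR KO pools it read 356 and 393.1 untreated and 278 and 221.8 irradiated. The untreated TNFR KO pool stood above the other 3, which overlapped. The host difference of 0.49 ± 0.18 was not called (limma on 4 pools, adjusted p = 0.0663), although it was with 5 of 18 alternative settings. Those 5 include the fits that take the 8 arrays, which are technical duplicates, as replicates. Untreated, the host difference was 0.78 ± 0.17 (limma, adjusted p = 0.0111, short of 2-fold), against 0.20 ± 0.17 irradiated. The other Cspg4 probe set, tested in no fit, gave 0.50 and 0.66.

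**Figure D2:**
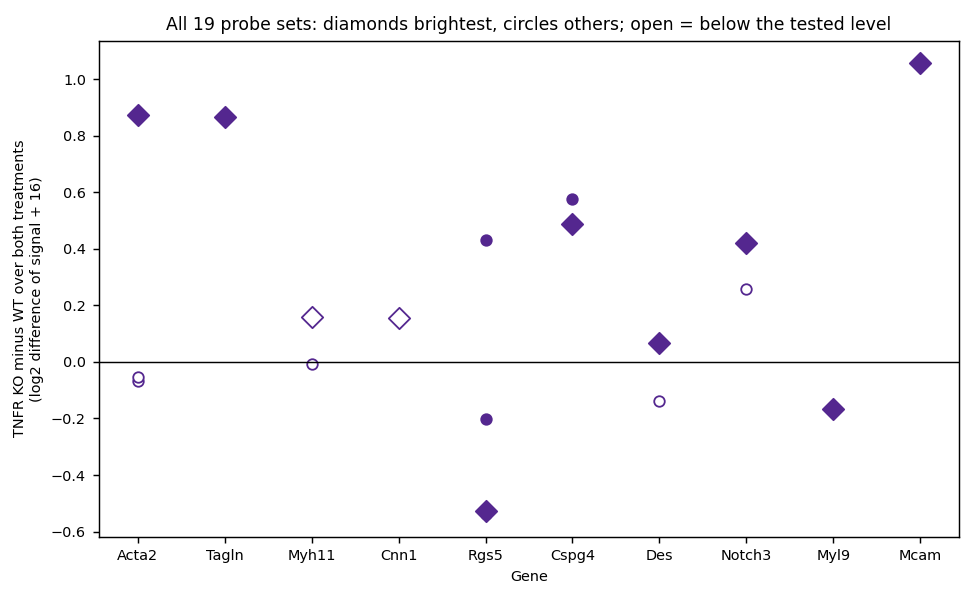
Host difference over both treatments (TNFR KO minus WT, log2 of signal + 16) for all 19 probe sets by gene, with diamonds for the brightest, circles for the others and open symbols below the tested level. Cspg4 has both probe sets above 0 (0.49 and 0.58), and the Rgs5 probe sets lie on both sides of 0, from -0.54 to 0.43.

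Mcam, an adhesion receptor of the immunoglobulin family first described on melanoma cells and also made by endothelium and mural cells, had the largest host difference of the 8 tested genes. Its signals were 893.6 and 931.8 in the untreated and 1690.7 and 1480.8 in the irradiated WT pool. They were 2768.1 and 2469 in the untreated and 2108.7 and 2789.1 in the irradiated TNFR KO pool. The hosts did not overlap and differed by 1.06 ± 0.21, 2.08-fold (limma on 4 pools, adjusted p = 0.00436). Without TNFR KO irradiated replicate 2 the difference was 0.96 and the call was lost (adjusted p = 0.0581).

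The Mcam difference was larger in untreated pools, at 1.502 ± 0.147 or 2.83-fold, which was called (limma on 8 arrays, adjusted p = 0.000589). In irradiated pools it was 0.61 ± 0.15 (limma, adjusted p = 0.0143, short of 2-fold). Radiation was followed by a value 0.78 ± 0.15 higher in WT (adjusted p = 0.0155, short of 2-fold) and 0.11 lower in TNFR KO hosts (limma, adjusted p = 0.623). The difference between these effects, -0.89 ± 0.21, missed the threshold (limma, adjusted p = 0.052). It was called without TNFR KO irradiated replicate 2, at -1.09.

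Notch3, a receptor that arterial smooth muscle and pericytes need to mature, was the 1 tested gene of the list called for radiation. It read 310.8 and 347.6 in the untreated WT pool and 543.9 and 549.7 in the irradiated one. In TNFR KO pools it read 388.9 and 437.1 untreated and 794.8 and 794.6 irradiated. Irradiated arrays exceeded untreated arrays in each host. The effect over both hosts was 0.81 ± 0.16, 1.76-fold (limma on 4 pools, adjusted p = 0.036). It was 0.71 ± 0.08 in WT and 0.92 ± 0.08 in TNFR KO hosts (limma on 8 arrays, adjusted p = 0.00395 and 0.00231), both short of 2-fold.

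The Notch3 call was not stable. It was lost in all 8 fits that left out 1 array (0.77 to 0.85), and with arrays centred on their medians (0.67), quantile normalization (0.85) or no pseudocount (0.84). Centring moved the median of all tested genes for radiation in WT hosts from -0.02 to -0.28, and the Notch3 effect there was 0.45. As for Acta2, the brightest Notch3 probe set is of a type that can also read related transcripts. The dimmer Notch3 probe set, below the tested level, gave 0.89 in WT and 0.32 in TNFR KO hosts. The hosts' responses to radiation differed by 0.21 ± 0.12 (limma, adjusted p = 0.284), which was not called.

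**Figure D3:**
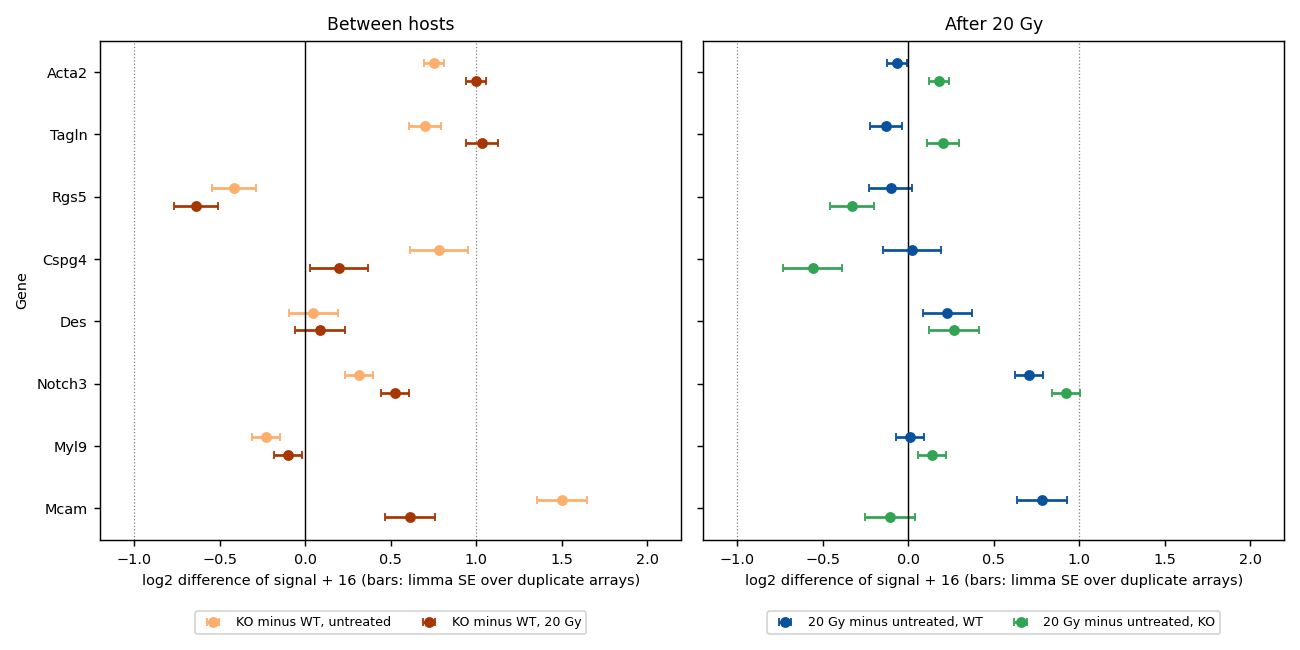
Log2 differences of the 8 tested genes between hosts (left) and after 20 Gy (right), with limma standard errors from duplicate arrays and dotted lines at 2-fold. Acta2 and Tagln lie near 1.00 between irradiated pools, Mcam reaches 1.502 between untreated pools, and Notch3 lies at 0.71 and 0.92 after radiation.

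Counted over the 8 tested genes, 4 were called between hosts: 3 higher in TNFR KO hosts and 1 lower (Rgs5). Of all 11345 genes, 30.9% were called there, 12% higher and 18.9% lower. The median difference was 0.45 for the list and 0.09 for all tested genes. Hosts' arrays did not overlap for these same 4 genes, and for 44.2% of all genes (22.5% higher, 21.7% lower). Calls between hosts are therefore common on these arrays, and 4 of 8 is to be read against that share. The pool-level fit also depends on the filter on dim genes: with all 18193 genes in it, limma called 0 genes for host and 0 for radiation (4487 and 1998 had an unadjusted p under 0.05), and the called genes of the list had adjusted p of 0.0841 to 0.171 for host.

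For radiation over both hosts 1 of 8 was called, higher, against 1.9% of all genes (1.55% higher), and the list's median was 0.07. Irradiated and untreated arrays were apart in the same direction in each host for Notch3 (higher) and Rgs5 (lower), as for 33.9% of all genes (15.1% higher, 18.9% lower). Between untreated pools 1 of 8 was called (Mcam, higher) against 8.31% of all genes (2.06% higher, 6.25% lower). Between irradiated pools 1 of 8 was called (Tagln, higher) against 8.22% (0.793% higher, 7.43% lower). For radiation in WT hosts limma called 0 of 8 (2 with an unadjusted p under 0.05) against 2.45% of all genes (2.25% higher). In TNFR KO hosts it called 0 of 8 (4 unadjusted) against 1.37% (0.881% higher), and for the difference between the radiation effects 0 of 8 (3 unadjusted) against 2.21%.

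Genes with related roles are given from lists. Of 9 tested genes of the remaining contractile apparatus, 2 were called higher and 3 lower in TNFR KO hosts over both treatments. For this list and those that follow, the share of all tested genes called in that comparison was 30.9%, 12% higher and 18.9% lower, and no list was tested against it. Tpm2, a tropomyosin, was higher by 0.72 ± 0.16, and Aoc3, an amine oxidase of smooth muscle, by 0.66 ± 0.22. Cald1, which encodes caldesmon, fell by 0.90 on the log2 scale, Mylk, the myosin light chain kinase, by 0.74 and Csrp1, a LIM protein, by 0.48 (limma on 4 pools, adjusted p = 0.00268, 0.00913 and 0.0436). The list's median was 0.35. Calls numbered 3 or 4 without any 1 array, with 4 only without TNFR KO untreated replicate 2 or WT irradiated replicate 2. The Csrp1 call was lost in all 8 such fits and that of Aoc3 in 7. None of the 9 was called for radiation over both hosts (limma, 2 with an unadjusted p under 0.05).

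Serum response factor and its partners gave 2 calls of 5 tested genes between hosts, both higher, where 30.9% of all genes were called (12% higher). Srf itself was higher by 0.50 ± 0.17, and Fhl2, a cofactor of smooth muscle genes, by 1.05 ± 0.26 (limma on 4 pools, adjusted p = 0.0417 and 0.0123). The brightest other member, Mrtfb, gave 0.31 ± 0.16 and was not called. The count fell to 0 or 1 without any 1 of the 8 arrays, with the Srf call lost in all 8 fits and that of Fhl2 in 5. The Fhl2 difference ranged from 0.65 without WT irradiated replicate 1 to 1.45 without WT irradiated replicate 2.

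Of 13 tested other pericyte markers, 4 were called between hosts, all higher in TNFR KO hosts. That share is near the 30.9% of all genes called in either direction, and 12% of all genes were called higher. Values were above 0 for 11 of the 13, with a median of 0.31 against 0.09 for all tested genes. Pdgfrb, the receptor that recruits pericytes, averaged 328.3 untreated and 297.3 irradiated in WT hosts, and 981 and 664.4 in TNFR KO hosts. Its host difference of 1.32 ± 0.17 was called (limma on 4 pools, adjusted p = 0.000502), as it was between untreated (1.52) and irradiated pools (1.12). The Pdgfrb call between irradiated pools was lost in 1 of 19 alternatives, at 0.41. Itga7, an integrin, was higher by 0.93, Cd248, endosialin, by 0.74 and Gja4, a gap junction protein, by 0.65. In the irradiated WT pool Itga7 averaged 30.25, below the 68.77 required on average for testing. The 4 calls became 2 without the first WT array of either treatment, and that of Cd248 was lost in 6 of 8 such fits. Between untreated pools all 13 values were above 0 (median 0.55 against 0.08 for all tested genes). There 2 were called, both higher, where 8.31% of all genes were called (2.06% higher). Between irradiated pools 10 of 13 were above 0 (median 0.25 against 0.06), with 2 called higher and 1 lower. Of all genes, 8.22% were called there (0.793% higher, 7.43% lower). The lower call was Anpep, an aminopeptidase, at -1.40 ± 0.45 (limma on 8 arrays, adjusted p = 0.0379). The Anpep call was lost without either TNFR KO untreated array or the first array of either irradiated pool, with -0.90 without TNFR KO irradiated replicate 1. Abcc9 and Kcnj8, pericyte potassium channel subunits, gave -0.40 and 0.43, not called.

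Among 12 tested ligands and receptors of mural recruitment, 2 were called higher and 1 lower in TNFR KO hosts, 3 of 12 against 30.9% of all genes. Values were above 0 for 10 of the 12, with a median of 0.30 against 0.09 for all tested genes. Pdgfb, the ligand of Pdgfrb, averaged 238.05 and 325.6 in WT and 599.4 and 536.2 in TNFR KO pools, a difference of 0.98 ± 0.18 (limma on 4 pools, adjusted p = 0.00311). S1pr3, a sphingosine phosphate receptor, was higher by 1.12 and Tgfbr1, a receptor of transforming growth factor beta, fell by 0.65 on the log2 scale. Pdgfa was called after radiation in WT hosts at 1.20 ± 0.18 (limma on 8 arrays, adjusted p = 0.00899) and read 0.00 in TNFR KO hosts. The difference between hosts, -1.19 ± 0.26, was called (limma, adjusted p = 0.0448), but in 1 of 8 fits that left out 1 array. The Pdgfa call in WT hosts was lost without WT untreated replicate 2 (0.89). Edn1, which encodes the vessel constrictor endothelin, was also called in WT hosts, at 1.22, but not without the first WT array of either treatment (0.93 and 1.04).

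Of 11 tested Notch genes beside Notch3, 7 were called higher in TNFR KO hosts, with a median of 0.59, where 12% of all genes were called higher. For radiation over both hosts 0 were called (limma, 2 with an unadjusted p under 0.05), where 1.9% of all genes were. Nrarp, a target of Notch signalling, was higher by 1.07 ± 0.16, and the ligands Jag2 and Dll4 by 0.75 and 0.70 (limma on 4 pools, adjusted p = 0.000961, 0.00794 and 0.0133). Notch4, an endothelial receptor, was higher by 0.74, a call lost in 6 of 8 fits that left out 1 array. The 7 calls became 3 without either WT untreated array or the first WT irradiated array, and 4 without either TNFR KO untreated array. Notch3 itself differed between hosts by 0.42 ± 0.16 (limma on 4 pools, adjusted p = 0.0749), which was not called.

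**Figure D4:**
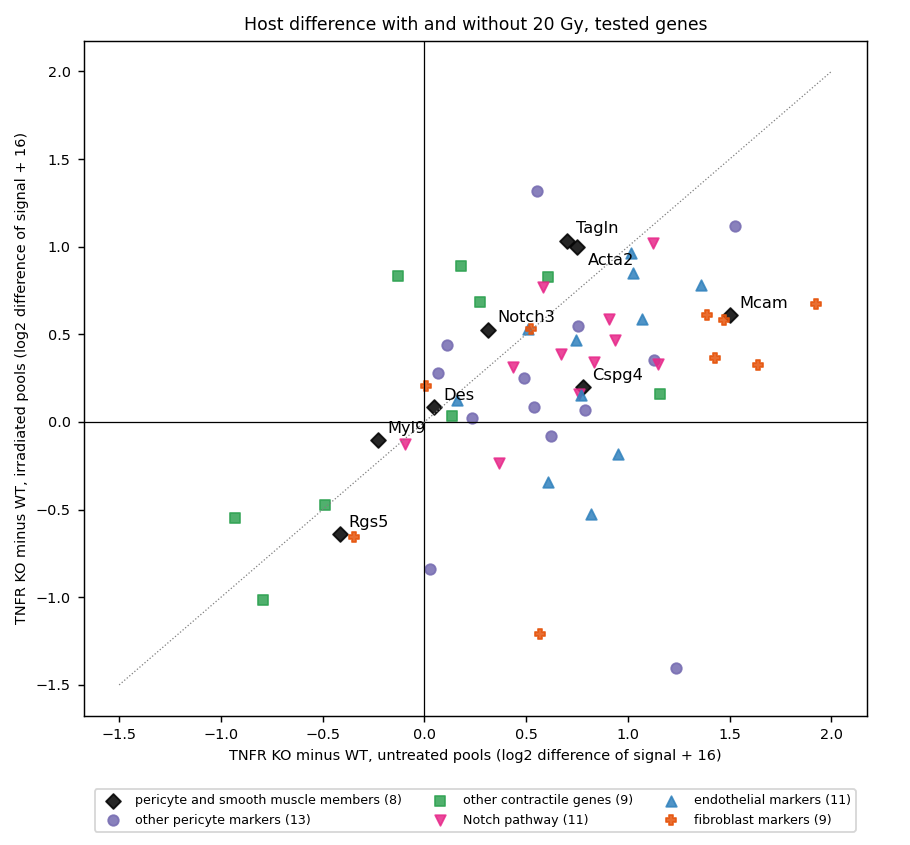
Host difference (TNFR KO minus WT, log2 of signal + 16) in untreated pools (horizontal axis) and irradiated pools (vertical axis), for the 8 tested genes as labelled diamonds and 5 other lists as coloured symbols, with the dotted line marking equal differences. Acta2 and Tagln lie above that line and Mcam and Cspg4 below it.

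Markers of other cells moved with the hosts too. Endothelial markers were called higher in TNFR KO hosts in 6 of 11 cases, among them Esam at 1.07 and Sox18 at 0.99. The endothelial list summed to 3172.3 to 3350 and 3879.8 to 3967.2 on untreated and irradiated WT arrays, against 5469.5 to 5841.3 and 4789.7 to 4904.9 on TNFR KO arrays. The mural list summed to 6118.1 to 6397.7 and 6867.2 to 7136.2 against 9971.4 to 10000.2 and 10601.9 to 10922.5. Most of that host difference lies in 2 genes, Acta2 (pool means of 2637.15 and 4451.1 untreated) and Mcam (912.7 and 2618.55).

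Fibroblast markers were called higher in 6 of 9 cases and lower in 1 (Lum, lost in all 8 fits that left out 1 array). Their sums were 8801.2 to 9335.5 and 11928.3 to 12394.8 on WT arrays and 19611.3 to 19738.3 and 15581.7 to 15659.4 on TNFR KO arrays. Col1a2, a collagen chain, was higher by 1.30 ± 0.25 and Thy1 by 1.03 ± 0.21 (limma on 4 pools, adjusted p = 0.00365 and 0.00506). The 7 fibroblast calls became 1 without WT untreated replicate 1. They became 3 without TNFR KO untreated replicate 1, WT untreated replicate 2 or WT irradiated replicate 1, and 4 without the replicate 2 array of either TNFR KO pool. Fibroblast and endothelial sums were lower in the irradiated than in the untreated TNFR KO pool. So were those of the other pericyte markers, at 5369.5 to 5574.3 against 6125.1 to 6425.8. The values of Acta2 and Tagln for radiation in TNFR KO hosts, 0.18 and 0.20, were not called (limma on 8 arrays, adjusted p = 0.0804 and 0.163).

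Skeletal muscle markers went the other way, with 8 of 11 called lower in TNFR KO hosts. After radiation 6 of 11 were called lower, where 0.353% of all genes were. Of the list's 14 genes, 1 averaged below the tested level in the untreated WT pool and 9 in the irradiated TNFR KO pool. The tested muscle genes thus include some that passed the filter through pools where they are high, and both counts describe these genes only. Their sums were 1774.5 to 1790.8 in the irradiated WT pool and 2163 to 2202.6 in the untreated TNFR KO pool. The 8 calls became 4 without TNFR KO irradiated replicate 2 and 5 without the first array of either WT pool. The 6 radiation calls became 0 without the first array of either WT pool, 1 without WT untreated replicate 2 or TNFR KO irradiated replicate 2, and 3 without either TNFR KO untreated array. Quantile normalization also gave 0, and a filter at the 75th percentile 1. Keratinocyte markers were called higher in 4 of 4 tested cases, with sums of 399.2 to 690 on WT arrays and 830.3 to 3131.7 on TNFR KO arrays. Of the list's 10 genes, 9 averaged below the tested level in the untreated WT pool and 3 in the untreated TNFR KO pool. The tested keratinocyte genes thus include some that passed the filter through the pool where they are high, and their count describes them only. Those 4 calls became 1 in 6 of the 8 fits that left out 1 array, the exceptions being TNFR KO irradiated replicate 1 and WT irradiated replicate 2. Melanocyte markers summed to 170263 to 205088 on WT and 176250 to 186008 on TNFR KO arrays, with 1 of 10 called between hosts (Mitf, which fell by 0.89 on the log2 scale). No gene of these lists was at 0. The part of any of these cells in the values of the mural genes was not tested.

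**Figure D5:**
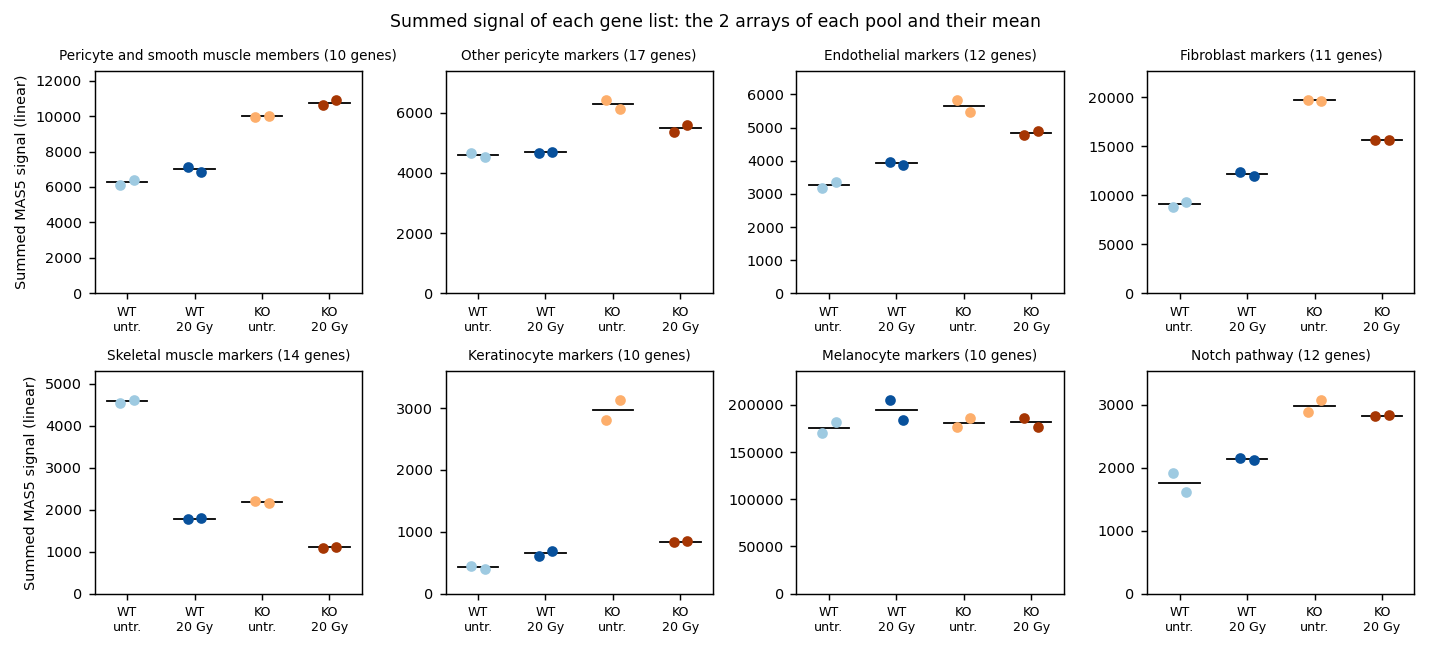
Summed MAS5 signal (linear axes from 0) of 8 gene lists, with points for the 2 arrays of each pool and a line for their mean. The mural list is highest in the irradiated TNFR KO pool (10601.9 to 10922.5). The lists of other pericyte markers (6125.1 to 6425.8), endothelial markers and fibroblast markers are highest in the untreated TNFR KO pool.

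The tested genes whose pattern over the 8 arrays was closest to that of Acta2 were Wdr90, Rapgef3, Nomo1, Polrmt and Mlec. Their centred log2 values lay a root mean square distance of 0.0703 to 0.0812 from those of Acta2. None is on a list above.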

How the data were processed

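Whole-tumour RNA of 4 pools was read on 8 mouse arrays (Affymetrix), 2 per pool. The authors deposited signal intensity on a linear scale, with MAS5 named in the submitters' processing notes, version not stated. All arrays shared a 2%-trimmed mean of 500, hence they had been scaled to 1 target.

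Signals were transformed to log2(signal + 16). Probe sets were named from the array annotation: 34945 gave 1 gene, 932 more than 1 and 9160 no gene, besides 64 controls. Of those with 1 gene, 34741 matched a RefSeq gene table by identifier and 0 symbols changed. The brightest probe set stood for each of 18193 genes, and 11345 with a mean log2 signal of at least 6.406 (the median of non-control probe sets) were tested. limma 3.58.1 (R 4.3.3; figures in matplotlib 3.10.9) fitted host and radiation additively on the 4 pool means (1 residual and 9.52 prior degrees of freedom). Single-pool comparisons used the 8 arrays (4 residual and 1.994 prior degrees of freedom), with a 2-fold threshold. Tests were two-sided, with Benjamini-Hochberg adjusted p-values over all tested genes. The procedure was tested on simulated data.

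The listed genes and 10 further lists (135 symbols in all, 132 matched) were chosen with earlier results of these data known. From each further list up to 4 genes were to be named, called genes by size of host difference and then the brightest, and also the 5 genes closest to Acta2. Csrp1, Anpep, Abcc9, Kcnj8, Pdgfa, Edn1 and Lum fall outside that rule and were chosen after their values were seen. Motifs were searched in RefSeq promoter windows. Duplicates of the same number did not deviate together (correlations of -0.0318 to 0.052), so the number does not pair arrays. Alternatives covered normalization, pseudocount, filters, fold threshold, probe set choice, the error model and leaving out each array.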

Additional observations from a re-analysis of the deposited data

How the results depend on the processing

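Without the filter on dim genes, 0 listed genes were called for host in place of 4, and 0 for radiation in place of 1. Leaving out 1 array gave 2 to 4 host calls, with 2 without TNFR KO irradiated replicate 2, and 0 radiation calls in every case. Quantile normalization, centring and no pseudocount also gave 0 for radiation. Between untreated pools the call of 1 gene became 6 with no fold threshold and 4 at 1.5-fold, and stayed at 1 with each array left out. Between irradiated pools 1 became 2 with centring or no pseudocount, 0 with a pseudocount of 64, 5 with no fold threshold and 4 at 1.5-fold, and 0 to 2 with 1 array left out. Radiation in WT hosts gave 2 with no fold threshold or 1.5-fold in place of 0, and in TNFR KO hosts 1; leaving out 1 array gave 0 and 0 to 1. The difference between radiation effects gave 0 to 1. The causes were not tested.

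Some probe set values reversed: the dim Acta2 probe sets gave host differences of -0.0663 and -0.05275, and an Rgs5 probe set gave 0.43. With the 8 arrays as replicates, 6 listed genes were called for host and 1 for radiation, with or without the replicate block, and the block changed no other count; over all genes it gave 6106 host calls, against 6446 without it and 3504 on pool means. Radiation calls numbered 1771, 2471 and 216. Centring moved the share of higher calls among all genes from 38.9% to 19.4% for host, from 81.5% to 50.8% for radiation, from 24.8% to 10.3% between untreated pools, for radiation in WT hosts from 91.7% to 55.6%, and for the difference between radiation effects from 7.17% to 38%. Over single listed genes, 978 values under alternatives counted as unchanged, 30 lost a call and 37 gained one. A value not called could count as unchanged after a change of sign. Tagln for radiation over both hosts did so (0.04, and -0.02 to 0.09 with 1 array left out). In 3 cases a called value reversed its sign. Another 42 values of other probe sets lay more than 1 SE from that of the brightest, some with the opposite sign. For list counts the settings were chosen after seeing the data. Signal near background limits Myh11, Cnn1 and the dim probe sets. Itga7 and Fhl2 in the irradiated WT pool (30.25 and 46.45) and Anpep in the irradiated TNFR KO pool (40) also averaged below 68.77. So did Fhl2, Anpep and Aoc3 in the untreated WT pool (61.6, 56.1 and 68.3). Genes of the skeletal muscle and keratinocyte lists were below it in some pools too.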
